A study of Arabidopsis thaliana with 12 samples.

Results

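Histones are the proteins around which nuclear DNA is wound. An octamer of H2A, H2B, H3 and H4 makes up the core of the nucleosome, and the linker histone H1 binds where the DNA enters and leaves it. The histone genes described here were given as 39 Arabidopsis thaliana locus identifiers, chosen by class (H1, H2A, H2B, H3, H4 and their variants) and by their presence among the counts of this series, with earlier results of the same counts known. Of the 39 genes, 36 were among the 12905 genes counted, and HTA8 (H2A.Z), HIS4 (H4) and HIS1-3 (H1) were not analysed here. The 36 comprised 4 genes of canonical H2A, 2 of H2A.X, 3 of H2A.W, 2 of H2A.Z, 8 of H2B, 5 of H3.1, 3 of H3.3, 7 of H4 and 2 of H1. Because the counts over the doses entered the choice of the members, their levels and changes are a description and carry no p-value.

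Wild-type seedlings of the ecotype Col-0, 2 weeks old, were kept whole for 2 h in light of 30 µE in water with cycloheximide (CHX) at 0, 1, 10 or 100 µM, with 3 replicates per dose. CHX stops elongation by cytosolic ribosomes, so the question was how mRNA levels changed with the dose of this inhibitor. How far protein synthesis was blocked at each dose was not measured in these libraries. All groups shared the genotype, age, light and transfer to water, and 0 µM was the reference for each dose. mRNA was read from its 3′ ends by bulk MARS-seq, which captures polyadenylated RNA. Total counts ranged from 1073063 to 3724564 per library. Leaf markers (4 of 4 measured, none at 0 in any library) and root markers (5 of 5, none at 0) were present. Levels are given as CPM, a count set relative to its library size after TMM scaling. The leaf markers summed to 11150.4 to 12218 CPM at 0 µM, 7666 to 10057 CPM at 1 µM, 8141 to 9889.7 CPM at 10 µM and 6905 to 7445 CPM at 100 µM, and all 3 CHX doses lay below 0 µM. RBCS1A made up most of these sums, with means of 9958 CPM at 0 µM and 6110 CPM at 100 µM. LHCB1.1 overlapped its 0 µM libraries at each dose. Of the 4 leaf markers 0 were called at 1 or 100 µM and 1 was called lower at 10 µM. The root markers summed to 94.8 to 149.8 CPM at 0 µM, 60.9 to 95.7 CPM at 1 µM, 38.6 to 41.8 CPM at 10 µM and 48.5 to 64.3 CPM at 100 µM, lowest at 10 µM. Single root markers differed, since EXPA7 was called higher at 1 µM (log2 change 1.13 ± 0.33), SCR was called at no dose, and 2 of the 5 were called lower at 100 µM. Of 5 meristem markers 2 were measured, and they summed to 4.76 to 7.02 CPM at 100 µM, against 6.04 to 15.7 CPM at 0 µM, with PLT1 at 0 in 2 of the 12 libraries. The part of these shifts in the histone results was not tested. In whole seedlings, fewer cells of a type and less RNA per cell cannot be told apart.

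Canonical H2A, H3.1 and H4 are here called replication-type histones, since their genes are expressed mainly in S phase to package newly copied DNA. Variants replace them outside replication or at particular places. H3.3 is laid down at transcribed genes, H2A.Z at the first nucleosomes of genes and at genes that respond to the environment, H2A.W in heterochromatin, and H2A.X carries a tail that is phosphorylated at DNA breaks. The mRNAs of plant histone genes carry a poly(A) tail, unlike the replication-dependent histone mRNAs of animals, so a poly(A)-primed 3′-end method counts them.

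The annotated genes bore out the grouping. All 8 H4 genes encoded 1 identical protein of 103 residues, and the 5 H3.1 genes 1 identical protein of 136 residues. The 3 H3.3 genes shared another protein of 136 residues, which differed from H3.1 at 4 residues (positions 31, 41, 87 and 90, counted after the initiator methionine). The phosphorylated tail motif of H2A.X ended both H2A.X proteins and no other H2A. No H2B, H3.1 or H4 gene had an intron in its coding sequence, while all genes of the 4 H2A classes, of H3.3 and of H1 did. Genes of a class may share reads where their 3′ ends are alike. Of windows of 50 bases in the last 300 bases of each mRNA, none occurred elsewhere in the TAIR10.1 genome for 38 of 39 genes. The exception was the H4 gene AT1G07660, with 88 of 251 windows (35.1%) also in the H4 gene AT1G07820.

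All 16 measured genes of the replication-type histones H2A, H3.1 and H4 were called higher at 100 µM CHX relative to the median gene, and both measured H2A.Z genes were called lower. Of the replication-type genes 7 were called higher at 1 µM and 11 at 10 µM, and of the H2A.Z genes 0 were called lower at 1 µM and 1 at 10 µM. At 100 against 0 µM, 24 of the 36 histone genes were called higher (adjusted p under 0.05 and at least 2-fold in edgeR's quasi-likelihood fit), beside 23.8% of all genes, and 2 were called lower, beside 14.9% of all genes. At 10 against 0 µM, 17 were called higher and 2 lower, beside 22.4% and 12.1% of all genes. At 1 against 0 µM, 10 were called higher and 0 lower, beside 13.5% and 3.12% of all genes. DESeq2 also called 0 lower at 1 µM, and without the 2-fold minimum edgeR counted 1. Since the choice of members used these counts, nothing is read from the shares. Below it is also stated where the libraries of 2 doses did not overlap. The share of all genes without such overlap was not determined, so those statements only describe the values. All 3 comparisons share the 0 µM libraries. The median log2 change of the 36 genes was 0.70 at 1 µM, 1.05 at 10 µM and 1.33 at 100 µM, beside 0.02 over all genes in each comparison.

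The 16 replication-type genes of H2A, H3.1 and H4 had a median log2 change of 1.64 at 100 µM, and 16 of them were called higher. H2B and H1 were placed in neither group. Of the 8 H2B genes 5 were called higher at 100 µM, so the statement on all 16 holds for a group without H2B. The 10 genes of H2B and H1 had a median of 0.87 at 100 µM, with 5 called higher and 5 neither. The 10 genes of H2A.X, H2A.W, H2A.Z and H3.3 had a median of 0.50, with 3 called higher, 2 lower and 5 neither. Among those 5, HTA3, HTA6 and AT4G40030 had only 143, 57 and 148 counts over all libraries. The median lay between H2AXA (0.46 ± 0.15) and HTA6 (0.54 ± 0.97), so it rests partly on such a gene. The 3 called higher were HTA7 (1.44) and the H3.3 genes AT4G40040 (1.50) and AT5G10980 (1.11). Within a library, the replication-type genes held 26.6% ± 2.87 at 0 µM (SD, n = 3), 32.3% ± 1.37 at 1 µM, 36.04% ± 1.502 at 10 µM and 38.96% ± 0.335 at 100 µM of all histone counts. The variants held 35.96% ± 2.13 at 0 µM (SD, n = 3), 35.4% ± 1.101 at 1 µM, 33.8% ± 2.08 at 10 µM and 33.6% ± 1.02 at 100 µM, and the H2B and H1 genes 37.5% ± 1.24 at 0 µM (SD, n = 3), 32.3% ± 2.16 at 1 µM, 30.2% ± 0.627 at 10 µM and 27.5% ± 0.687 at 100 µM. These shares are ratios of counts from 1 library and do not depend on how libraries are scaled to each other.

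**Figure D1:**
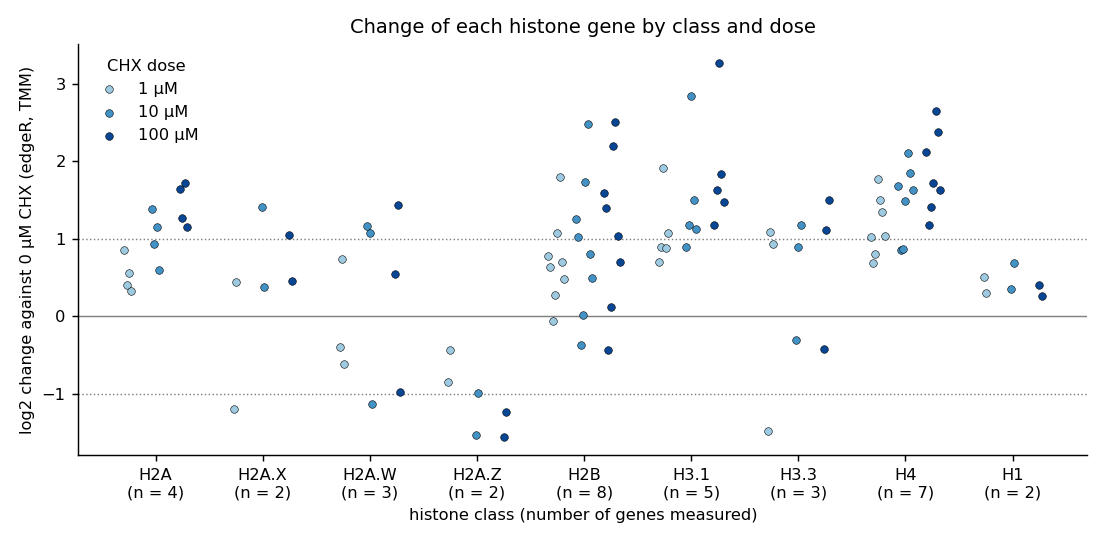
Each point is the log2 change of 1 histone gene against 0 µM (y axis, edgeR after TMM scaling), by class (x axis) and CHX dose (shade, 1, 10 and 100 µM from left to right), with dotted lines at 2-fold. All 16 genes of H2A, H3.1 and H4 lie above the upper dotted line at 100 µM and both H2A.Z genes lie below the lower one.

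The size of every change depended on how libraries were scaled. The TMM factors were 0.681 to 0.767 at 100 µM, against 1.40 to 1.55 at 0 µM. Scaled to total counts alone, the median of all genes moved to −1.01 at 100 against 0 µM, 6 histone genes were called higher and 5 lower. Scaled to 9 reference genes, the median of all genes moved to 0.54, with 25 histone genes higher and 1 lower. That scale is the sum of their counts, which was 6191 to 6861 CPM at 0 µM. UBQ10 and EF1A made up most of it, with means of 3971 and 2081 CPM. After TMM scaling UBQ10 was itself lower at 100 µM (−0.74 ± 0.19, edgeR adjusted p = 0.00242, under 2-fold). Of the 9 genes 2 were called lower at 100 µM. On total counts the class medians at 100 against 0 µM stayed positive for H2A (0.42), H2B (0.18), H3.1 (0.58), H3.3 (0.07) and H4 (0.67). That of H2A.Z stayed negative (−2.44), while those of H2A.X (−0.28), H2A.W (−0.47) and H1 (−0.71) turned negative. Most calls were lost on that scale. Those higher were 0 of 4 genes in H2A, 2 of 8 in H2B, 1 of 5 in H3.1, 0 of 3 in H3.3 and 3 of 7 in H4. Both measured H2A.Z genes were still called lower. With reference-gene scaling no class median changed sign, and that of H2A.Z was −0.86. Summed over the 36 genes, histone counts made up 0.834% ± 0.0604 at 0 µM (SD, n = 3), 1.09% ± 0.0564 at 1 µM, 0.837% ± 0.0485 at 10 µM and 0.886% ± 0.0408 at 100 µM of all counts in a library. By class, H4 counts made up 0.112% ± 0.0213 at 0 µM (SD, n = 3), 0.203% ± 0.0221 at 1 µM, 0.158% ± 0.0132 at 10 µM and 0.178% ± 0.00944 at 100 µM of all counts, and H2A.Z counts 0.0526% ± 0.00402 at 0 µM (SD, n = 3), 0.0241% ± 0.00323 at 1 µM, 0.0107% ± 0.00156 at 10 µM and 0.00897% ± 0.000725 at 100 µM. In shares of all counts H4 was thus higher at 100 than at 0 µM and H2A.Z lower, as after TMM scaling. The mean shares of H2A, H2A.W, H3.1 and H3.3 were higher too. H2B (0.160% ± 0.0105 at 100 µM, 0.180% ± 0.0182 at 0 µM), H2A.X (0.0201% ± 0.00236 and 0.0298% ± 0.000610) and H1 had lower mean shares, although their medians were positive after TMM scaling. The sum of all 36 genes at 10 and 100 µM differed from that at 0 µM by less than the SD of the 0 µM libraries. All levels and changes below are relative to the median gene (TMM).

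All 4 canonical H2A genes were called higher at 100 µM, with a median log2 change of 1.46. HTA10, with the most counts of the class and the largest rise, had 100.1, 134 and 99.7 CPM at 0 µM, 139, 153 and 196 CPM at 1 µM, 273, 208 and 259.7 CPM at 10 µM, and 394, 311 and 389 CPM at 100 µM. Its log2 change was 0.55 ± 0.19 at 1 µM, 1.15 ± 0.19 at 10 µM and 1.72 ± 0.19 at 100 µM, and no library at 1, 10 or 100 µM was as low as any at 0 µM. HTA1 (also RAT5, known for its need in transformation by Agrobacterium) had 91.8 to 173 CPM at 100 µM, against 37.6 to 46.1 CPM at 0 µM. HTA2 had 140.0 to 174 CPM at 100 µM, against 59.1 to 75.9 CPM at 0 µM, and HTA13 had 101 to 107 CPM at 100 µM, against 44.2 to 52.3 CPM at 0 µM. In these 3 genes too the libraries of the 2 doses did not overlap, and the log2 changes at 100 µM were 1.65 ± 0.23, 1.26 ± 0.21 and 1.15 ± 0.17. None of the 4 reached 2-fold at 1 µM, where the changes lay between 0.33 and 0.85.

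The 2 genes of H2A.X were called in no comparison. H2AXA, with nearly all of the class's counts, had 188, 201 and 208 CPM at 0 µM, 268, 281 and 259.9 CPM at 1 µM, 256, 253 and 268 CPM at 10 µM, and 276, 283 and 259.7 CPM at 100 µM. The libraries with CHX lay above those at 0 µM at each dose but not above one another by dose, with log2 changes of 0.44 ± 0.15 at 1 µM, 0.38 ± 0.15 at 10 µM and 0.46 ± 0.15 at 100 µM, the last of which was −0.59 on total counts. HTA3 was low in every library, with 1.75 to 17.5 CPM at 100 µM, against 0.894 to 5.40 CPM at 0 µM, and its libraries overlapped.

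The H2A.W genes went apart. HTA7, which held most counts of the class, had 76.6, 91.5 and 89.9 CPM at 0 µM, 136, 140.3 and 155 CPM at 1 µM, 203, 177 and 162 CPM at 10 µM, and 249, 212 and 236 CPM at 100 µM. The 4 groups stood in the order of the dose with no overlap, with log2 changes of 0.75 ± 0.16 at 1 µM, 1.07 ± 0.16 at 10 µM and 1.44 ± 0.17 at 100 µM, called at 10 and 100 µM. HTA12 had 15.3, 15.7 and 15.2 CPM at 0 µM, 12.1, 8.00 and 10.1 CPM at 1 µM, 8.62, 9.57 and 2.21 CPM at 10 µM, and 11.1, 7.56 and 5.26 CPM at 100 µM. It was lower in every library with CHX than in any at 0 µM, with log2 changes of −0.61 ± 0.35 at 1 µM, −1.12 ± 0.36 at 10 µM and −0.98 ± 0.39 at 100 µM, and was called lower at 10 µM only. The whole of another gene of 522 bases, AT5G02570, lies on the opposite strand within HTA12, and whether reads were counted by strand is not given in the sources used here. It is annotated as a histone superfamily protein with an H2B domain, is not among the 39 genes, and had 19.1 to 26.2 CPM at 100 µM, against 0 to 2.51 CPM at 0 µM. HTA6 had 57 counts in all libraries together and 0 in 1 library at 0 µM, so that no difference was detectable at this depth.

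Both measured H2A.Z genes were called lower at 100 µM, the opposite direction to canonical H2A. HTA9 had 320.0, 298 and 309 CPM at 0 µM, 185, 172 and 161 CPM at 1 µM, 106, 118 and 99.4 CPM at 10 µM, and 100.0, 116 and 101 CPM at 100 µM. The 3 dose groups lay below 0 µM without overlap, the values at 10 and 100 µM overlapped each other, and the log2 changes were −0.84 ± 0.15 at 1 µM, −1.52 ± 0.16 at 10 µM and −1.55 ± 0.16 at 100 µM. HTA11 had 19.1 to 20.7 CPM at 100 µM, against 34.9 to 65.2 CPM at 0 µM, with a log2 change of −1.23 ± 0.28. The call of HTA11 was lost without 0 µM replicate 2, its highest library (log2 change −0.94), and with reference-gene scaling (−0.70).

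The mix of H2A classes within a library changed accordingly. H2A.Z held 38.5% ± 1.49 at 0 µM (SD, n = 3), 20.4% ± 2.79 at 1 µM, 11.6% ± 2.01 at 10 µM and 8.99% ± 1.27 at 100 µM of all H2A counts. Canonical H2A held 28.5% ± 1.45 at 0 µM (SD, n = 3), 37.5% ± 4.42 at 1 µM, 48.2% ± 3.07 at 10 µM and 53.7% ± 2.16 at 100 µM. H2A.W held 11.1% ± 0.580 at 0 µM (SD, n = 3), 15.3% ± 0.509 at 1 µM, 16.7% ± 1.62 at 10 µM and 17.3% ± 0.484 at 100 µM, and H2A.X 21.9% ± 1.00 at 0 µM (SD, n = 3), 26.8% ± 1.96 at 1 µM, 23.5% ± 1.31 at 10 µM and 20.03% ± 1.46 at 100 µM. For H2A.Z and canonical H2A, no library at 100 µM came near any at 0 µM, whereas the H2A.X shares of 18.9% to 21.7% at 100 µM overlapped those of 21.0% to 23.0% at 0 µM.

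**Figure D2:**
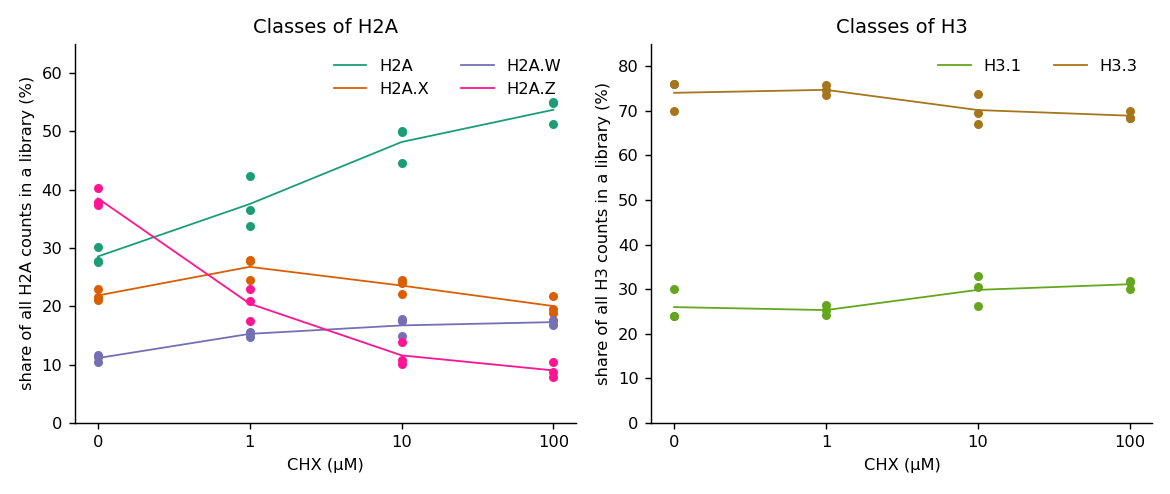
Shares (y axis, %) of the counts of all H2A genes (left) and all H3 genes (right) held by each class, by CHX dose (x axis, µM). Points are libraries, lines join the means of 3. H2A.Z lies at 37.4% to 40.2% at 0 µM and at 7.90% to 10.4% at 100 µM.

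H2B was placed in neither the replication-type nor the variant group. H4, whose genes all encode 1 protein, was counted as replication-type. The log2 changes of H2B spanned the widest range of any class at 10 and 100 µM, while those of H3.3 did at 1 µM. Of 8 genes, 5 were called higher at 100 µM and 3 were not, with a median log2 change of 1.22. HTB9, with the most counts, had 336, 365 and 322 CPM at 0 µM, 493, 577 and 592 CPM at 1 µM, 666, 568 and 556 CPM at 10 µM, and 737, 696 and 672 CPM at 100 µM. Its log2 changes were 0.70 ± 0.16 at 1 µM, 0.81 ± 0.16 at 10 µM and 1.04 ± 0.16 at 100 µM, and at 100 µM it lay close to the 2-fold limit. On the scale of total counts its change at 100 µM turned to −0.00055. AT3G53650 showed the largest rise of the class, with 12.4, 21.3 and 21.5 CPM at 0 µM, 50.9, 62.3 and 74.7 CPM at 1 µM, 107, 102 and 91.9 CPM at 10 µM, and 108, 89.7 and 111 CPM at 100 µM. It was called at all 3 doses, with log2 changes of 1.799 ± 0.22 at 1 µM, 2.48 ± 0.22 at 10 µM and 2.51 ± 0.23 at 100 µM, and was already 3.48-fold higher at 1 µM. AT2G37470 was also called at each dose, with log2 changes of 1.08 ± 0.17 at 1 µM, 1.73 ± 0.17 at 10 µM and 2.19 ± 0.18 at 100 µM. HTB1 and HTB2 were called at 10 and 100 µM, with log2 changes at 100 µM of 1.59 ± 0.20 and 1.39 ± 0.19. HTB11 had 319 to 393 CPM at 100 µM, against 206 to 250.1 CPM at 0 µM, a log2 change of 0.70 ± 0.16 under the 2-fold limit (−0.34 on total counts, and 1.24 and called with reference-gene scaling).

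The other H2B genes did not follow. HTB4, among the most counted, had 445 to 491 CPM at 100 µM, against 395 to 471 CPM at 0 µM, overlapping groups with a log2 change of 0.12 ± 0.15 (−0.93 on total counts). AT2G28720 had the lowest change of the class, with 24.5, 28.8 and 20.6 CPM at 0 µM, 27.4, 24.3 and 18.3 CPM at 1 µM, 22.5, 19.1 and 14.6 CPM at 10 µM, and 25.4, 17.6 and 12.3 CPM at 100 µM. Its groups overlapped at every dose and its log2 changes were −0.06 ± 0.25 at 1 µM, −0.37 ± 0.26 at 10 µM and −0.43 ± 0.27 at 100 µM, the last of which was 0.10 with reference-gene scaling and −1.48 and called on total counts. As a share of H2B counts, HTB4 held 35.01% ± 0.153 at 0 µM (SD, n = 3), 28.98% ± 0.745 at 1 µM, 22.8% ± 1.57 at 10 µM and 20.8% ± 0.922 at 100 µM. AT3G53650 held 1.496% ± 0.358 at 0 µM (SD, n = 3), 3.49% ± 0.523 at 1 µM, 5.27% ± 0.164 at 10 µM and 4.60% ± 0.436 at 100 µM, and AT2G37470 3.43% ± 0.480 at 0 µM (SD, n = 3), 4.95% ± 0.581 at 1 µM, 7.23% ± 0.184 at 10 µM and 8.53% ± 0.544 at 100 µM.

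All 5 H3.1 genes, which encode the same protein, were called higher at 100 µM, with a median log2 change of 1.62. AT3G27360 had the largest change of all 36 genes, with 26.4, 38.9 and 21.5 CPM at 0 µM, 97.5, 90.00 and 135 CPM at 1 µM, 256, 195 and 157 CPM at 10 µM, and 270.0, 278 and 275 CPM at 100 µM. The 4 groups stood in the order of the dose with no overlap, and the log2 changes were 1.92 ± 0.23 at 1 µM, 2.84 ± 0.24 at 10 µM and 3.27 ± 0.24 at 100 µM, a 9.64-fold higher level at 100 µM. Its first 328 bases also belong to the end of SDH2-1, a gene on the same strand that was not analysed here. AT1G09200, with the most counts of the class, had 135, 189 and 137 CPM at 0 µM, 252, 312 and 287 CPM at 1 µM, 392, 355 and 294 CPM at 10 µM, and 483, 449.8 and 481 CPM at 100 µM. Its log2 changes were 0.89 ± 0.18 at 1 µM, 1.18 ± 0.18 at 10 µM and 1.62 ± 0.18 at 100 µM, with no overlap with 0 µM at any dose. AT5G65360 had the smallest change, with 327 to 378 CPM at 100 µM, against 139 to 185 CPM at 0 µM and a log2 change of 1.17 ± 0.17. The neighbours AT5G10400 and AT5G10390, 577 bases apart with no gene between them, had log2 changes at 100 µM of 1.84 ± 0.18 and 1.48 ± 0.20. At 10 µM they stood at 1.50 ± 0.17 and 1.13 ± 0.20. Within H3.1, AT3G27360 held 5.94% ± 1.01 at 0 µM (SD, n = 3), 11.8% ± 1.81 at 1 µM, 16.4% ± 1.70 at 10 µM and 17.4% ± 0.655 at 100 µM of the counts, and AT5G65360 32.5% ± 0.0397 at 0 µM (SD, n = 3), 27.7% ± 0.350 at 1 µM, 23.8% ± 1.66 at 10 µM and 22.2% ± 0.622 at 100 µM.

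Of the 3 H3.3 genes 2 were called higher at 100 µM. AT4G40040 carried the most counts of all 36 genes, with 852, 829 and 853 CPM at 0 µM, 1418, 1435 and 1968 CPM at 1 µM, 1901, 1769 and 2046 CPM at 10 µM, and 2234, 2504 and 2437 CPM at 100 µM. Its log2 changes were 0.93 ± 0.17 at 1 µM, 1.17 ± 0.17 at 10 µM and 1.50 ± 0.17 at 100 µM, and its groups with CHX lay above 0 µM without overlap. AT5G10980 had 497, 499.6 and 548 CPM at 0 µM, 1006, 1088 and 1192 CPM at 1 µM, 948, 989 and 925 CPM at 10 µM, and 1035, 1173 and 1125 CPM at 100 µM. Its level at 1 µM overlapped that at 100 µM, and the log2 changes were 1.09 ± 0.16 at 1 µM, 0.89 ± 0.16 at 10 µM and 1.11 ± 0.16 at 100 µM. AT4G40030, which starts 42 bases beyond the end of AT4G40040 on the same strand, had 12.1, 4.39 and 3.58 CPM at 0 µM, 1.42, 2.00 and 4.28 CPM at 1 µM, 10.9, 1.65 and 4.42 CPM at 10 µM, and 7.15, 6.04 and 2.92 CPM at 100 µM. It had 148 counts in all, its groups overlapped, and its log2 changes were −1.47 ± 0.62 at 1 µM, −0.31 ± 0.55 at 10 µM and −0.42 ± 0.60 at 100 µM. H3.1 held 25.96% ± 3.45 at 0 µM (SD, n = 3), 25.3% ± 1.22 at 1 µM, 29.8% ± 3.42 at 10 µM and 31.1% ± 0.991 at 100 µM of all H3 counts. The H3.1 share was 29.9% to 31.7% at 100 µM, against 23.9% to 29.9% at 0 µM, so that the highest library at 0 µM nearly reached the lowest at 100 µM.

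**Figure D3:**
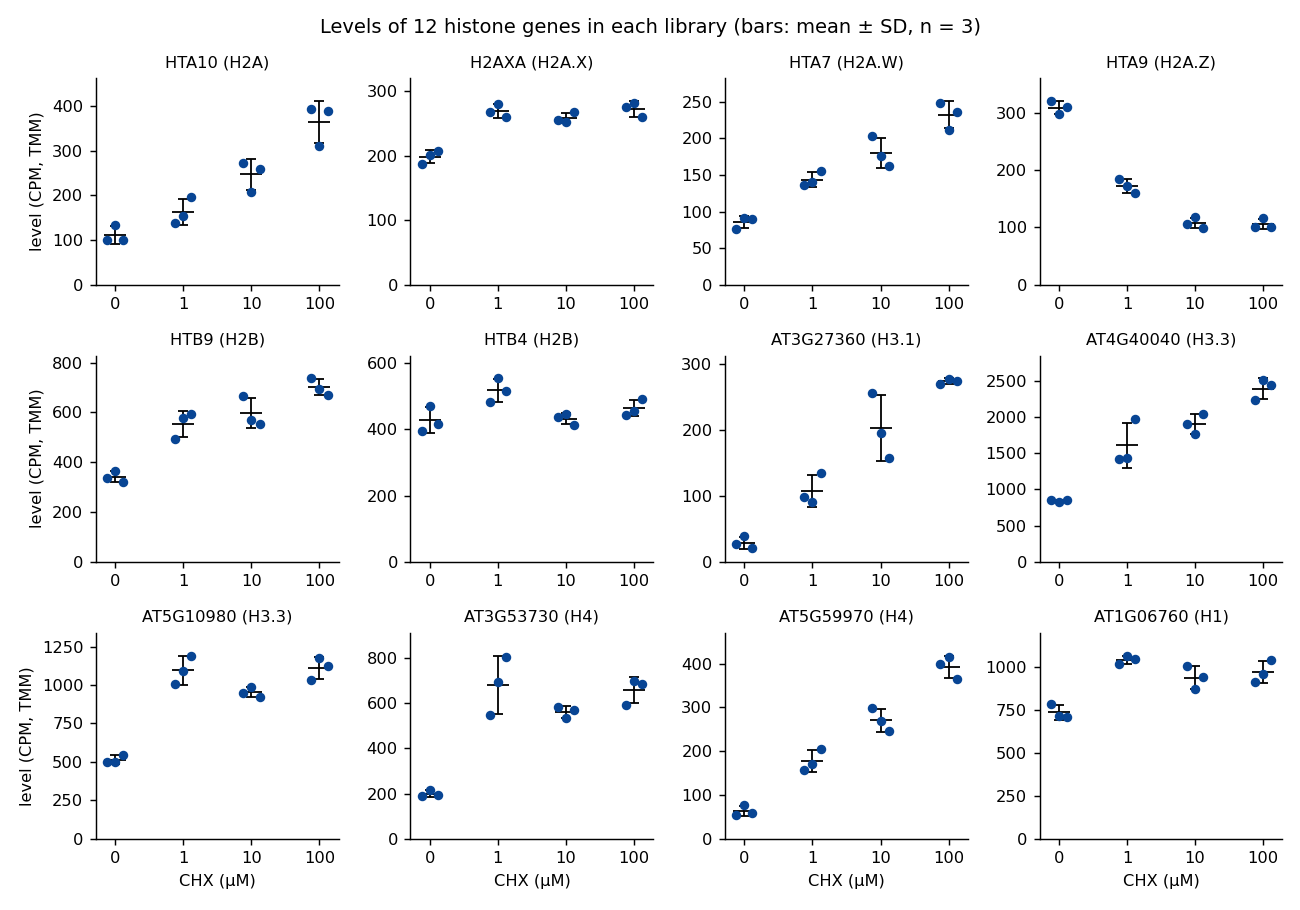
Levels (y axis, CPM after TMM scaling, from 0) of 12 histone genes by CHX dose (x axis, µM). Points are libraries, and bars give the mean ± SD of 3. HTA9 alone among the 12 is lower with CHX, HTB4 shows overlapping groups at 0, 10 and 100 µM, and in AT5G10980 and AT3G53730 the libraries at 1 µM overlap those at 100 µM.

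All 7 measured H4 genes were called higher at 100 µM and 5 of them already at 1 µM, with a median log2 change of 1.72 at 100 µM. AT5G59970 had the largest change, with 54.7, 76.5 and 59.03 CPM at 0 µM, 156, 171 and 205 CPM at 1 µM, 298, 268 and 246 CPM at 10 µM, and 399, 415 and 366 CPM at 100 µM. The 4 groups stood in the order of the dose with no overlap, and the log2 changes were 1.49 ± 0.18 at 1 µM, 2.10 ± 0.18 at 10 µM and 2.64 ± 0.19 at 100 µM. AT3G53730, with the most counts of the class, had 191, 218 and 192 CPM at 0 µM, 547, 695 and 805 CPM at 1 µM, 582, 533 and 571 CPM at 10 µM, and 592, 697 and 685 CPM at 100 µM. It was as high at 1 µM as at the other doses, with log2 changes of 1.77 ± 0.18 at 1 µM, 1.49 ± 0.17 at 10 µM and 1.72 ± 0.18 at 100 µM. AT3G45930 and AT3G46320 had log2 changes at 100 µM of 2.37 ± 0.23 and 2.11 ± 0.21. AT5G59690 and AT1G07820 had the smallest, 1.18 ± 0.19 and 1.41 ± 0.18. AT1G07660, part of whose 3′ end AT1G07820 shares, had 119 to 148 CPM at 100 µM, against 38.1 to 45.1 CPM at 0 µM and a log2 change of 1.63 ± 0.20. These 7 genes encode 1 protein, and their shares of H4 counts moved apart. AT5G59970 held 8.33% ± 0.349 at 0 µM (SD, n = 3), 10.1% ± 0.127 at 1 µM, 14.00% ± 0.320 at 10 µM and 15.8% ± 0.831 at 100 µM, and AT5G59690 30.5% ± 2.19 at 0 µM (SD, n = 3), 21.5% ± 1.12 at 1 µM, 21.8% ± 1.70 at 10 µM and 21.3% ± 0.418 at 100 µM. AT3G53730 held 26.6% ± 3.35 at 0 µM (SD, n = 3), 38.7% ± 2.85 at 1 µM, 29.2% ± 2.46 at 10 µM and 26.5% ± 1.81 at 100 µM, highest at 1 µM.

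The 2 measured genes of linker histone H1 were called in no comparison. AT1G06760 had 783, 713 and 711 CPM at 0 µM, 1016, 1065 and 1046 CPM at 1 µM, 1004, 871 and 939 CPM at 10 µM, and 915, 959.6 and 1042 CPM at 100 µM. It was above 0 µM in every library with CHX, by log2 changes of 0.50 ± 0.15 at 1 µM, 0.35 ± 0.15 at 10 µM and 0.40 ± 0.15 at 100 µM, the last of which was −0.65 on total counts. AT2G30620 had 203, 144 and 128 CPM at 0 µM, 185, 190.3 and 212 CPM at 1 µM, 292, 232 and 243 CPM at 10 µM, and 253, 190.4 and 129 CPM at 100 µM. Its groups at 0 and 100 µM overlapped, with a log2 change of 0.26 ± 0.22 (−0.78 on total counts). As a share of all counts, H1 made up 0.132% ± 0.0181 at 0 µM (SD, n = 3), 0.144% ± 0.00379 at 1 µM, 0.0974% ± 0.00665 at 10 µM and 0.0833% ± 0.00548 at 100 µM.

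Beyond coding sequence, replication-type histone promoters of plants are known for an octamer motif, and H2B and H3 promoters for a hexamer bound by bZIP factors. Sequences were read from the TAIR10.1 genome with its RefSeq annotation, from 250 bases before to 50 bases after the annotated gene start of all 39 genes, and matches were searched on both strands. The octamer CGCGGATC was found in 10 of the 39 windows (25.6%), against 40 of 27443 windows of all nuclear protein-coding genes (0.146%). The hexamer ACGTCA was found in 12 of 39 (30.8%), against 9.19% of all. An E2F site, TTTCCCGC or TTTGGCGC, was found in 2 of 39 (5.13%), against 1.21% of all. No 2 matches overlapped in the member windows, and 10 of the 39 windows reached into another coding gene. A match is a description of the letters and shows no binding.

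The hexamer lay in all 8 H2B windows, in 2 of 5 H3.1 windows, 1 of 3 H3.3 windows and 1 of 8 H4 windows. That of HTB4 lay at base 41 of the annotated gene, and that of AT2G28720 before the start. In the 250 bases before the start 7 of 8 H2B genes had a hexamer, all but HTB4. The octamer lay in no H2B window. The octamer lay in 3 of 5 H3.1 windows, 2 of 4 canonical H2A windows and 2 of 8 H4 windows, and in 1 window each of H2A.W, H3.3 and H1. No H2A.Z or H2A.X window held any of the motifs. Both E2F matches were in the H4 genes AT3G46320 and AT3G45930, each 237 bases before the start. The genes with the largest changes of their classes differed in their matches. AT3G27360 (H3.1) had a hexamer and no octamer, AT5G59970 (H4) had none of the motifs, and HTA10 (H2A) had 2 octamers.

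The 200 bases before the start are shown for 6 genes, 5′ to 3′ on the gene's strand, with matches in capitals. HTA10 at chr1:18926611-18926810 (plus strand) has an octamer on each strand and AT1G09200 at chr1:2972335-2972534 (minus strand) has 2 on the same strand. AT5G10400 at chr5:3270958-3271157 (minus strand) has both motifs, the hexamer on the opposite strand. AT3G53650 at chr3:19889097-19889296 (plus strand) and AT2G28720 at chr2:12326608-12326807 (plus strand) are the H2B genes with the highest and the lowest change, each with 1 hexamer. AT5G59970 at chr5:24146730-24146929 (minus strand) is the H4 gene with the largest change and has no match.
HTA10 (H2A): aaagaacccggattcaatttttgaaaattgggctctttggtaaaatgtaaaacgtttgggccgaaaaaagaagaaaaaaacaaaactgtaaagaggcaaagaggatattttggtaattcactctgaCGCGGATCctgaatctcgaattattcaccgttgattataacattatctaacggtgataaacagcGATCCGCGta
AT1G09200 (H3.1): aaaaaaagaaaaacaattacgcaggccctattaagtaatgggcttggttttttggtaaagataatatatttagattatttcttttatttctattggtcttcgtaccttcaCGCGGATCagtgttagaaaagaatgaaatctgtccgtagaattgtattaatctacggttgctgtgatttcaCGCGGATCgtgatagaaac
AT5G10400 (H3.1): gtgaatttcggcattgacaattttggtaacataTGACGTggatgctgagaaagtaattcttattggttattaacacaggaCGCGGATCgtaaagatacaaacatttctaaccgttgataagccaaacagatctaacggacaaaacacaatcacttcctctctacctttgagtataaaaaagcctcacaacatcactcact
AT3G53650 (H2B): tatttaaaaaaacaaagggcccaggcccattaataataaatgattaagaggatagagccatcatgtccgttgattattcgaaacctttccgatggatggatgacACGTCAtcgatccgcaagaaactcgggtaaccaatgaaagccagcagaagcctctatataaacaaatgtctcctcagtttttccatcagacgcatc
AT2G28720 (H2B): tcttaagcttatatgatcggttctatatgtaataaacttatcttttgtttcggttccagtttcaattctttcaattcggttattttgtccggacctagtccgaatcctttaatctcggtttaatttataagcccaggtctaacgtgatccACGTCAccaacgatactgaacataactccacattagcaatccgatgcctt
AT5G59970 (H4): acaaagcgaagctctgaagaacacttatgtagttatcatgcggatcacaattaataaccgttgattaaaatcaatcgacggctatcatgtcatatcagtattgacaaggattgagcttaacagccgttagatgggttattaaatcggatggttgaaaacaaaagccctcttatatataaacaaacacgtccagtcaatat

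AT3G53650, with a log2 change of 2.51 ± 0.23 at 100 µM, and AT2G28720, with −0.43 ± 0.27, thus both carry a hexamer, 96 and 50 bases before the start. HTA10 and AT1G09200, with 2 octamers each, had log2 changes of 1.72 ± 0.19 and 1.62 ± 0.18. AT5G59970, with none, had 2.64 ± 0.19.

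**Figure D4:**
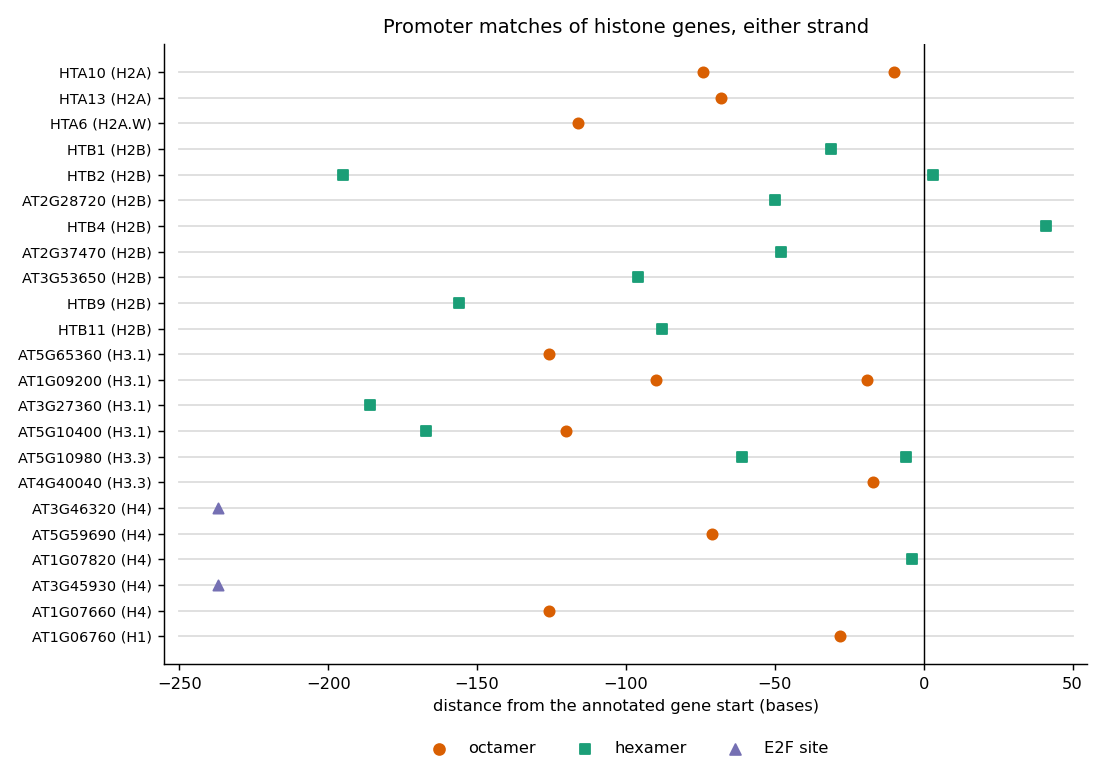
Positions of the octamer, the hexamer and the E2F site (x axis, bases from the annotated gene start at 0) in the windows of the 23 histone genes with a match on either strand (y axis). The hexamer is in all 8 H2B rows, in HTB4 only after the start, and the octamer in 3 H3.1 rows.

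Several histone genes lie near each other, across classes. AT5G10390 and AT5G10400 (H3.1), and AT4G40030 and AT4G40040 (H3.3), are direct neighbours. HTB1 lies 7298 bases from the H4 gene AT1G07820, HTB4 10656 bases from HTA6, and AT3G53650 22133 bases from the H4 gene AT3G53730. Genes near each other, though not direct neighbours, could differ in their change. HTB4 stood at 0.12 ± 0.15 and the H4 gene AT5G59970, 17668 bases away with 5 coding genes between them, at 2.64 ± 0.19.

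Genes outside the histone classes that act in DNA replication were also examined, from lists drawn up by function. Of 36 genes of DNA replication and S phase 11 were counted, 9 of them under a mean of 10 CPM. At 100 against 0 µM edgeR called 0, beside 23.8% of all genes higher and 14.9% lower. The median log2 change of the 11 was 0.48, beside 0.02 over all genes. Together they summed to 77.0 to 94.7 CPM at 100 µM, against 44.3 to 71.5 CPM at 0 µM, without overlap. RBR1 and RFC1 had the highest levels of the 11. At 100 against 0 µM 2 of the 11 had an unadjusted p under 0.05 in edgeR with a higher level and 1 with a lower one, and DESeq2 called 0. RBR1, the retinoblastoma-related repressor of E2F factors, had 26.2, 25.7 and 42.7 CPM at 100 µM, against 21.3, 18.2 and 9.39 CPM at 0 µM (log2 change 0.94 ± 0.29, edgeR adjusted p = 0.0111, under 2-fold). RFC1, the large subunit of the clamp loader, had 19.9, 32.7 and 27.5 CPM at 100 µM, against 13.0, 16.9 and 17.9 CPM at 0 µM (0.78 ± 0.25, edgeR adjusted p = 0.0133, under 2-fold). The next smallest adjusted p values in edgeR were those of FEN1 (−2.71 ± 1.20, adjusted p = 0.0671) and MET1 (−0.71 ± 0.36, adjusted p = 0.108). FEN1 rests on few reads, with 0.794, 0 and 0 CPM at 100 µM, against 1.27, 3.13 and 0.894 CPM at 0 µM. The count of S phase genes called higher became 1 without 0 µM replicate 1, without 0 µM replicate 2, without 100 µM replicate 1 or without 100 µM replicate 2, and the count called lower became 1 without 100 µM replicate 1. Of 27 genes of mitosis and cytokinesis 8 were counted, all under a mean of 10 CPM. At 100 against 0 µM edgeR and DESeq2 called 0 of them, and 0 had an unadjusted p under 0.05, so no difference was detectable at this depth. Their median log2 change was 0.36, and their sums overlapped, with 17.5 to 20.6 CPM at 100 µM and 13.4 to 27.0 CPM at 0 µM. The 4 with the smallest adjusted p in edgeR were CYCA2;2 (1.31 ± 0.87, adjusted p = 0.228), CYCA2;3 (1.44 ± 1.05, adjusted p = 0.271), CDC20.1 (−0.80 ± 0.58, adjusted p = 0.274) and HINKEL (−0.59 ± 0.60, adjusted p = 0.444).

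Histone chaperones carry histones to DNA, and remodelling complexes exchange them. Of 24 such genes 18 were counted, with a median log2 change of −0.31 at 100 against 0 µM beside 0.02 over all genes, and 0 were called higher, beside 23.8% of all genes, and 2 lower, beside 14.9%, a count near that background. None was called higher by DESeq2 either, and 1 had an unadjusted p under 0.05 with a higher level in edgeR. NRP1, a chaperone of the NAP1 family, had 11.9, 13.1 and 13.5 CPM at 100 µM, against 25.7, 35.1 and 26.4 CPM at 0 µM, without overlap (−1.16 ± 0.26, edgeR adjusted p = 0.000755). PIE1, the ATPase of the SWR1 complex that exchanges H2A for H2A.Z, had 0, 6.04 and 1.75 CPM at 100 µM, against 14.3, 11.3 and 6.71 CPM at 0 µM (−1.87 ± 0.54, edgeR adjusted p = 0.00686). The levels of PIE1 at 100 µM rest on few reads, since 1 count there equals 0.504 to 0.794 CPM. NAP1;1 (−0.69 ± 0.19, edgeR adjusted p = 0.00522) and the elongation factor gene SPT6L (−0.68 ± 0.23, edgeR adjusted p = 0.0161) were lower by less than 2-fold. With reference-gene scaling none of the 18 was called lower, and with total counts alone 13 were. ARP6 and SWC6, other subunits of SWR1, had log2 changes of −0.34 ± 0.31 and −0.66 ± 0.93 that did not pass the test in edgeR (adjusted p = 0.393 and 0.588).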

How the data were processed

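Polyadenylated 3′ ends of mRNA from whole Arabidopsis seedlings were counted in 12 libraries, 3 at each of 0, 1, 10 and 100 µM CHX. The submitters' processing notes and the study's methods name bcl2fastq 2.17.1.14 for base calling, cutadapt 1.8.3 for trimming, STAR for alignment (Araport11) and HTSeq for counting. The deposited counts are whole reads per gene, and every gene listed reached 5 reads in at least 1 library. The file is named as unfiltered for molecular identifiers, so PCR copies may be included. The authors also deposited a normalized signal (counts divided by 1 factor per library, from DESeq2) and regularized log2 values, neither of which was used.

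Counts were fitted in edgeR 4.0.16 (R 4.3.3) by quasi-likelihood with TMM scaling, 1 mean for each dose and all 12 libraries, and p-values were adjusted after Benjamini and Hochberg over 12905 genes. A gene was called at an adjusted p under 0.05 and at least 2-fold. Levels are CPM after TMM scaling, and changes are edgeR's log2 estimates ± SE. The members and gene lists were chosen with earlier results of these data known. For each class, every library is given for the gene with the most counts and for those with the largest rise and fall at 100 against 0 µM (mean of 10 CPM or more in the higher dose), and for each gene of H1 and H3.3. Up to 4 genes with the smallest adjusted p are named from each list of other genes, and PIE1's partners ARP6 and SWC6 were added after their values were seen. The study's methods describe biological replicates of pooled whole seedlings for its other assays, but neither they nor the labels state this of these libraries, and p-values reflect the spread of these samples alone. Gene names, models and promoters came from the RefSeq annotation of TAIR10.1, where 12832 of 12905 identifiers matched. Alternatives were other scalings, filters and thresholds, DESeq2 1.42.0, a replicate block, leaving out each library, thinned counts and a shorter promoter window.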

Additional observations from a re-analysis of the deposited data

How the results depend on the processing

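At 100 against 0 µM the counts of histone genes called higher (24) and lower (2) were the same with DESeq2, and with the replicate block they were 24 and 2 as well. The labels do not say whether the replicate numbers pair the samples. Deviations of same-numbered libraries correlated between −0.07 and 0.21, over 0.1 in 4 of 18 pairs. Those of other-numbered libraries correlated between −0.25 and 0.11, over 0.1 in 1 of 36 pairs. The block gave 10 higher at 1 µM and 18 higher at 10 µM, beside 10 and 17 without it. On total counts alone the genes called higher were 5 at 1 µM, 4 at 10 µM and 6 at 100 µM, and those called lower 2, 4 and 5. On that scale S phase genes called lower at 100 µM were 3, mitosis genes 2 and chaperone genes 13. With reference-gene scaling 5 histone genes were called higher and 1 lower at 1 µM, 1 lower at 10 µM and 1 lower at 100 µM, while 3 S phase genes were called higher and 0 chaperone genes lower at 100 µM. With no minimum fold, 25 histone genes were higher and 1 lower at 1 µM, 27 were higher at 10 µM, 2 S phase genes were higher and 4 chaperone genes lower at 100 µM. Leaving out each library in turn gave 6 to 13 histone genes higher at 1 µM (6 without 0 µM replicate 1), 1 to 3 lower at 10 µM (1 without 10 µM replicate 3), and 1 to 3 lower at 100 µM (1 without 0 µM replicate 2, 3 without 100 µM replicate 1, where HTA12 was called at −1.24). It gave 0 to 1 S phase genes higher and 0 to 1 lower. For single histone genes, 501 of 539 log2 changes at 100 against 0 µM under the alternatives kept their direction and their side of the threshold, 19 fell below it, 5 passed it and 14, of 10 genes, changed sign. On total counts these were HTB9 (AT3G45980, −0.00055), the only one of the 10 called with TMM scaling, H2AXA (AT1G08880, −0.59), HTA6 (AT5G59870, −0.47), HTB4 (AT5G59910, −0.93), HTB11 (AT3G46030, −0.34), AT1G06760 (−0.65) and AT2G30620 (−0.78). With reference-gene scaling they were AT2G28720 (0.10) and AT4G40030 (0.093), and with thinned counts AT4G40030 (0.017). With 1 library left out in turn, AT4G40030 ranged between −0.72 and 0.42 (positive only when lacking 0 µM replicate 1), HTA6 between −0.79 (lacking 100 µM replicate 1) and 1.02, also −0.02 when lacking 0 µM replicate 3, and HTA3 (AT1G54690) between −0.30 (lacking 100 µM replicate 1) and 1.86. With the 250 bases before the start alone, the octamer was found in 10 members, the hexamer in 10 and the E2F site in 2. HTB4 and AT1G07820 had no hexamer in that shorter window. Why the settings differed was not tested. Depth limits HTA3, HTA6 and AT4G40030, with 57 to 148 counts over all libraries, and most S phase and mitosis genes.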

Other observations

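Besides AT5G02570 within HTA12, whose log2 change at 100 against 0 µM was 4.36 ± 0.50 in edgeR over 341 counts in all libraries, 3 other counted genes overlap a histone gene. All 4 were chosen for their position, and their values had been seen. AT3G20680, which shares 79 bases with HTA13, had 1.59 to 4.03 CPM at 100 µM, against 6.67 to 10.3 CPM at 0 µM, the direction opposite to that of HTA13. AT3G45970 shares 22 bases with HTB9 and AT1G04503 shares 484 bases with AT1G06760, and they had 23 and 19 counts over all libraries. All of them lie on the strand opposite to the histone gene.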
